A study of Homo sapiens with 15 samples.

Results

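The genes described here are 57 genes of mitosis and the kinetochore, taken by a fixed list of symbols from a table of read counts for 60670 genes, and all 57 were found in it. They were sorted by their known roles into 9 groups: mitotic cyclins, CDK1 and its regulators (7 genes), the spindle checkpoint (5), the chromosomal passenger complex (4), the centromere and kinetochore (9), the APC/C and sister separation (6), kinesins (10), spindle assembly (7), the midzone and cytokinesis (4) and chromosome structure (5). The rule is a list of symbols with no threshold on measured values, and it was chosen with earlier results of these data known. The cells were HT-1080, a human fibrosarcoma line, and poly(A) RNA of 15 libraries was sequenced in 5 groups of 3 biological replicates. One group was cycling cells given the solvent DMSO for 6 h. The other 4 groups were senescent cells, made so by 6 days of a dominant negative form of TRF2, a protein that caps telomeres. They were then given DMSO or 1 µM GNF-7, a tyrosine kinase inhibitor, for 6 h or 24 h. Every senescent group therefore carried the TRF2 mutant, and no library of cycling cells with GNF-7 was analysed here. How the mutant was driven, and whether the line was 1 clone, is not given in the sources used here.

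In mitosis, CDK1 bound to a B-type cyclin drives the cell into division, condensin and topoisomerase shape the chromosomes, and kinetochores assemble on centromeres that carry the histone variant CENP-A. The spindle checkpoint holds the anaphase-promoting complex (APC/C) back until each kinetochore is attached to microtubules. The APC/C with CDC20 then marks securin and cyclin B for destruction, separase cleaves cohesin, and the midzone proteins lead to cytokinesis. Transcription of many of these genes peaks in G2 and M phase, through short promoter elements close to the gene start, above all the CHR element and the CCAAT box bound by NF-Y. In dividing tissue and tumour cells these genes serve as the common readout of proliferation, and senescent cells have left the cell cycle.

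The promoter elements are shown first because they were more frequent among the listed genes than among all genes. Not every listed gene showed them in the forms searched. Windows from 250 bases before to 50 bases after the start were available from RefSeq (GRCh38.p14) for 49 of the 57 genes, matched by symbol. KNL1, TTK, AURKA, BIRC5, BUB3, TPX2, UBE2C and RACGAP1 had no window. The search used the letters TTTGAA or TTTAAA for the CHR element and CCAAT for the CCAAT box, on both strands, so that TTCAAA and ATTGG are the same elements read on the other strand, while TTTAAA reads alike on both. The 4 stretches below run 5′ to 3′ and end at the base before the RefSeq start, or, for SPC24, 27 bases before it, where an annotated exon begins. Capitals mark the matches. Ki-67 (MKI67), KIF11 and separase (ESPL1) show a CHR element close to the start with a CCAAT box upstream, and SPC24 shows CCAAT boxes with no CHR element.
MKI67 promoter, chr10:128126424-128126563, minus strand: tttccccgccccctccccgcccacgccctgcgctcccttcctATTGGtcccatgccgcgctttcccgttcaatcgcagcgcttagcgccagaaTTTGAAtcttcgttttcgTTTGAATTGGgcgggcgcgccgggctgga
KIF11 promoter, chr10:92592990-92593129, plus strand: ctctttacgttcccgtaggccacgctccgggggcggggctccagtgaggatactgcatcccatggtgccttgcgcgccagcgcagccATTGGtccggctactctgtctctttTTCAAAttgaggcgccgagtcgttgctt
ESPL1 promoter, chr12:53268159-53268298, plus strand: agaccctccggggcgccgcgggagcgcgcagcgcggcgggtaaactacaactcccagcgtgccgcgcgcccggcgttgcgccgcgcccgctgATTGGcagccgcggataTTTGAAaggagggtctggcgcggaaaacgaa
SPC24 promoter, chr19:11155809-11155922, minus strand: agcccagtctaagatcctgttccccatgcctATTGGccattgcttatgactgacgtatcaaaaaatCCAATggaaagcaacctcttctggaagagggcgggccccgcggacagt

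Within 50 bases of the start, 36 of the 49 genes (73.5%) held a CHR element, against 25 of 79 other mitosis genes with a window (31.6%) and 1238 of 15842 protein-coding genes (7.82%). The form TTTGAA alone was within 50 bases of the start in 30 of the 49 genes (61.2%) and in 4.72% of protein-coding genes. A CCAAT box anywhere in the window was found for 39 of the 49 genes (79.6%), against 63.3% of the other mitosis genes and 42.1% of protein-coding genes. Both elements together were found for 29 of the 49 genes (59.2%), for 24.1% of the other mitosis genes and for 4.14% of protein-coding genes. Of all windows of the listed genes, 27.6% had a CHR match that began 25 to 50 bases before the start, against 2.7% of protein-coding windows. In the MKI67 stretch the CHR match nearest the start runs into a CCAAT box on the other strand, so those 2 matches overlap. These are matches of letters, other forms of the CHR element were not searched, and no binding was measured.

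**Figure D1:**
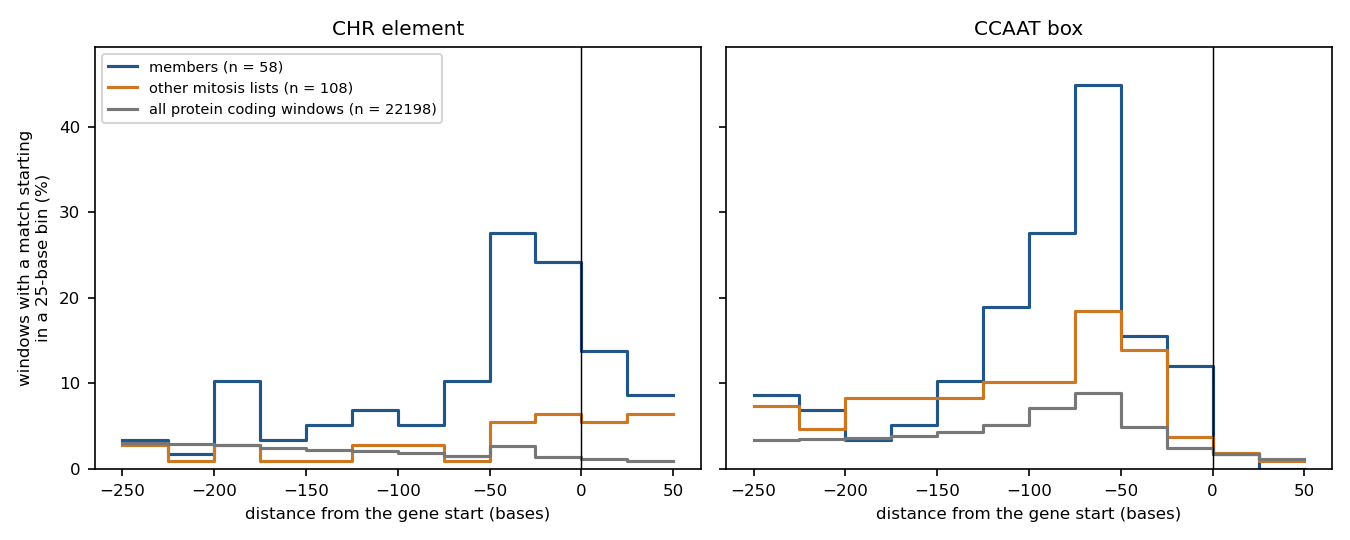
Share of promoter windows (%) in which a CHR element (left) or a CCAAT box (right) begins in each 25-base bin, against the distance from the gene start in bases, for the listed genes, the other mitosis genes and all protein-coding windows. The CHR line of the listed genes is highest just before the start, where 27.6% of windows have a match and 2.7% of protein-coding windows do.

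Total counts ran from 25991007 to 32323393 per library. Levels are given in CPM, the count as a share of the library's total, with TMM scaling, which corrects for libraries in which a few genes take a large share. All 57 genes passed the filter on low counts with 18563 genes in all, and the lowest count of any of them in a library was 4 (NUSAP1), or 32 with NUSAP1 set aside. The share of counts from mitochondrial genes moved with the groups, from 4.32% ± 0.636 (SD, n = 3) in cycling cells to 11.7% ± 0.640 in senescent cells with DMSO for 6 h, 14.1% ± 1.08 with GNF-7 for 6 h, 16.9% ± 1.80 with DMSO for 24 h and 23.3% ± 0.765 with GNF-7 for 24 h, and its part in the results was not tested. Scaling without the mitochondrial genes left 57, 42 and 56 of the 57 genes lower in the comparisons of senescence, of GNF-7 at 6 h and of GNF-7 at 24 h. Of 10 mesenchymal markers, 7 were above 10 CPM in every library, with VIM, FN1 and CD44 among them. NT5E and S100A4 stayed at or under 0.747 and 3.1 CPM. The mesenchymal sum ran from 8343 to 8578 CPM in cycling libraries, from 8016 to 8560 and from 8086 to 8860 CPM with DMSO for 6 h and 24 h in senescent ones, from 7494 to 8093 CPM with GNF-7 for 6 h and from 6020 to 6324 CPM with GNF-7 for 24 h. Epithelial, leukocyte and endothelial markers stayed at or under 2.27, 1.85 and 1.06 CPM each in any library. Summed, epithelial markers reached 2.54 CPM and endothelial ones 2.37 CPM with GNF-7 for 24 h (at most 1.27 and 1.46 CPM in the other groups), and leukocyte markers 2.16 CPM with GNF-7 for 6 h. The part of any of these in the results was not tested.

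The listed genes together made up 0.815% ± 0.0228 (SD, n = 3) of all counts in cycling cells, 0.280% ± 0.0146 in senescent cells with DMSO for 6 h and 0.237% ± 0.00358 with GNF-7 for 6 h. After 24 h the share was 0.237% ± 0.00475 with DMSO and 0.115% ± 0.00428 with GNF-7. Without the mitochondrial counts the same shares were 0.851%, 0.318%, 0.277%, 0.285% and 0.150%, in the same order of groups. The cycling libraries were thus above all others and the GNF-7 24 h libraries below all others on both scales, with no overlap between these and any other group. In bulk RNA, fewer cells in mitosis and less RNA per cell cannot be told apart.

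**Figure D2:**
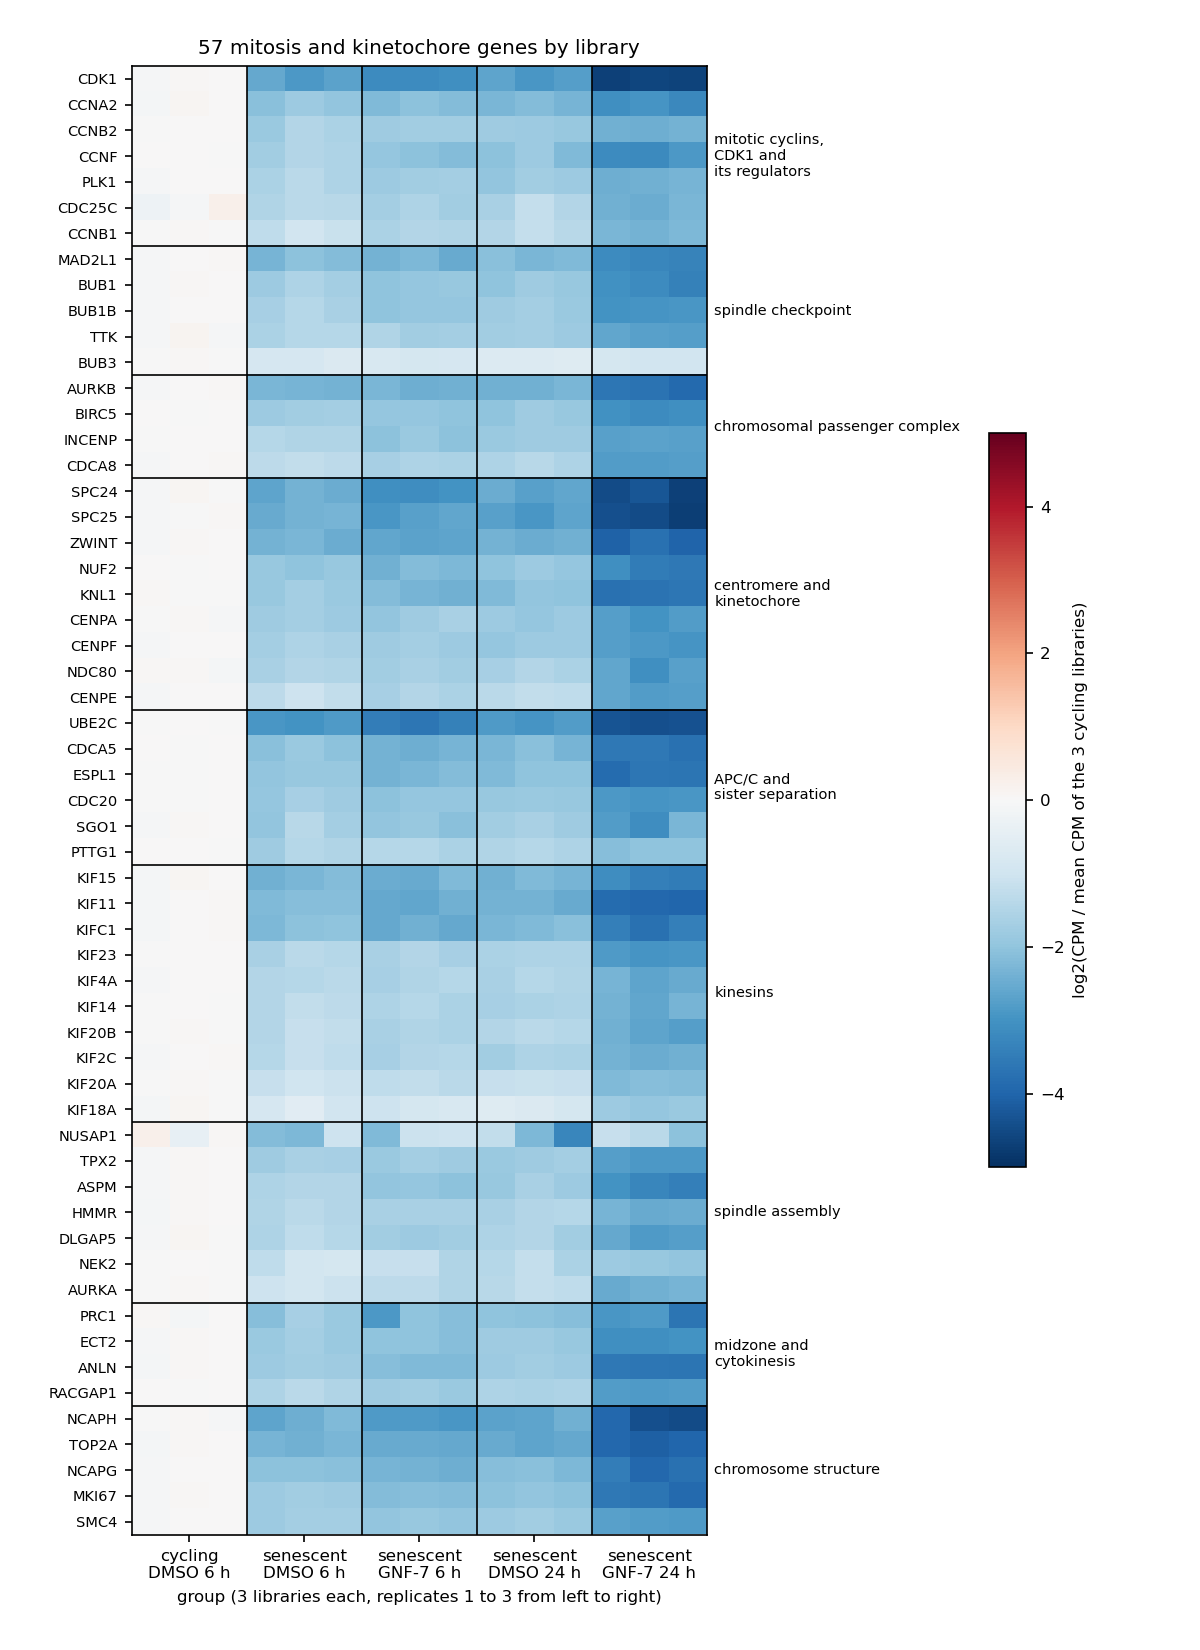
Level of each of the 57 genes (rows, ordered by role) in each of the 15 libraries (columns, 3 per group), as a log2 difference from that gene's mean over the cycling libraries on the TMM-scaled CPM scale. Values drop from cycling to senescent libraries and again in the 3 GNF-7 24 h libraries, and NUSAP1, the row with 4 to 48 counts per library, varies from library to library.

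The first comparison asked how the mitotic genes of senescent cells differed from those of cycling cells, both given DMSO for 6 h. All 57 genes were lower in senescent cells, 55 of them at least 2-fold. The falls were widest for UBE2C, the ubiquitin-conjugating enzyme of the APC/C, for CDK1 and for the kinetochore subunit SPC24. They were smallest for KIF18A, a kinesin that dampens chromosome movements, and for the checkpoint protein BUB3. The median log2 fold change of the 57 genes was -1.69, and the range ran from -2.92 to -0.78. By edgeR's quasi-likelihood test with adjusted p under 0.05, 70.0% of the 18563 genes tested were called in either direction and 34.4% were called lower, while 7.56% were lower by at least 2-fold. The median over all genes tested was 0.062. In all 57 genes the 3 senescent libraries were below the 3 cycling libraries, against 35.4% of genes tested.

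The next 2 comparisons asked what GNF-7 did in senescent cells, against DMSO for the same time. At 6 h, 43 of the 57 genes were lower with GNF-7 and none was higher, with 39.3% of genes tested called in either direction and 21.4% called lower. These changes were small: none reached 2-fold (0.566% of genes tested were lower and 4.16% higher by that much), and the median log2 fold change was -0.26, against 0.0073 over all genes tested. At 24 h, 56 of the 57 genes were lower and none was higher, with 58.9% of genes tested called and 29.7% called lower. Of these, 39 fell at least 2-fold, as 3.92% of genes tested did (10.3% rose at least 2-fold), and the median was -1.15, against 0.038 over all genes. SPC24, CDK1 and the cytokinesis scaffold ANLN fell furthest at 24 h, and BUB3 least. NUSAP1 was the gene with no call. The libraries of the 2 groups did not overlap for 37 of the 57 genes at 6 h (25.1% of genes tested were lower without overlap) and for 56 at 24 h (30.9%).

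At 24 h with GNF-7 the median gene stood at 13.5% of its cycling level, and 18 of the 57 genes were under 10% of it. CDK1 was lowest at 4.05% and BUB3 highest at 52.7%. The corresponding medians were 31.1% in senescent cells with DMSO for 6 h, 25.8% with GNF-7 for 6 h and 28.3% with DMSO for 24 h. These percentages describe levels across groups and carry no test.

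**Figure D3:**
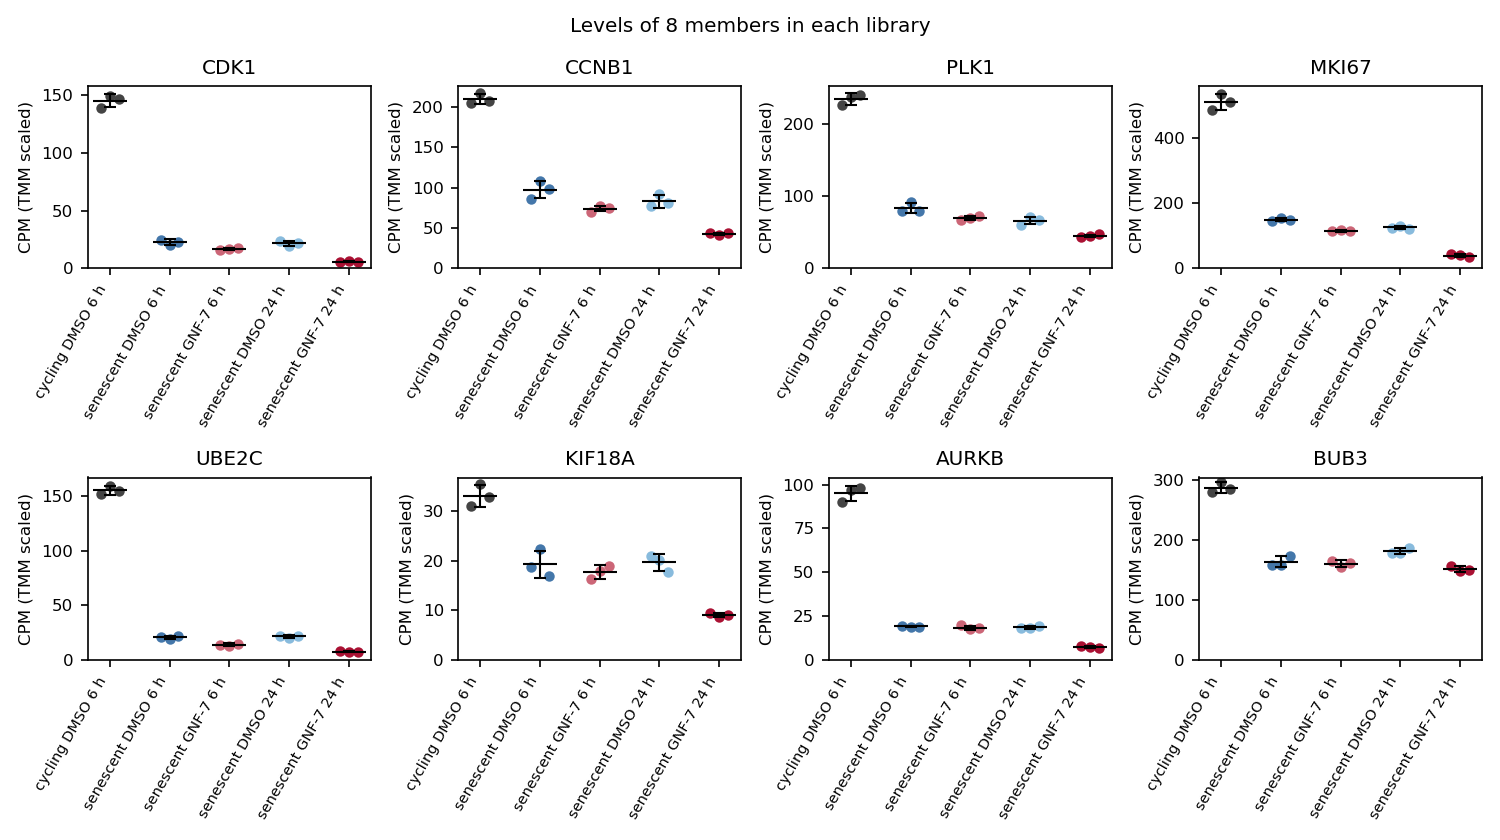
Level of 8 genes (TMM-scaled CPM, each axis starting at 0) in every library, with points for libraries, dashes for group means and bars for the SD, over the 5 groups. Each gene is highest in the 3 cycling libraries, and all but BUB3 sit at their lowest in the GNF-7 24 h libraries without overlap.

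Among the cyclins, CDK1 and its regulators, all 7 genes were lower in senescent cells (median log2 fold change -1.58) and all 7 were lower again with GNF-7 for 24 h (median -0.95). CDK1 (chr10:60778331-60794852), the kinase that triggers entry into mitosis, was at 139, 149.6 and 147 CPM in cycling libraries and at 24.9, 19.9 and 22.6 CPM in senescent libraries with DMSO for 6 h. It was at 16.2, 16.5 and 17.4 CPM with GNF-7 for 6 h, 23.4, 19.6 and 21.7 CPM with DMSO for 24 h and 5.64, 6.11 and 5.88 CPM with GNF-7 for 24 h. The groups compared did not overlap in any of the 3 comparisons, and the 2 DMSO groups of senescent cells did. CDK1 fell by 2.69 on the log2 scale in senescence (SE 0.062, edgeR adjusted p = 1.61e-43). With GNF-7 it fell by 0.42 at 6 h (SE 0.071, edgeR adjusted p = 1.29e-06) and fell by 1.88 at 24 h (SE 0.084, edgeR adjusted p = 2.58e-28).

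Cyclin B1 (CCNB1), the partner of CDK1 at mitotic entry, was at 205, 217 and 208 CPM in cycling libraries, 86.3, 108 and 97.8 CPM in senescent libraries with DMSO for 6 h and 70.2, 76.7 and 74.5 CPM with GNF-7 for 6 h. After 24 h it was at 76.5, 92.2 and 80.5 CPM with DMSO and 43.5, 41.3 and 43.8 CPM with GNF-7. No cycling library overlapped a senescent one, and GNF-7 and DMSO libraries were apart at both times. The fold changes were -1.11 in senescence, -0.40 at 6 h and -0.95 at 24 h (SE 0.066, 0.069 and 0.073), all called lower by edgeR. Cyclin A2 (CCNA2), which acts from S phase to early mitosis, fell from 183 ± 10.9 CPM (SD, n = 3) in cycling to 47.4 ± 4.35 CPM in senescent cells. At 6 h its GNF-7 libraries at 40.1, 44.8 and 40.4 CPM overlapped the DMSO libraries at 43.1, 51.9 and 47.2 CPM. Its fold change of -0.19 (edgeR adjusted p = 0.0145) was no longer called in 4 of 15 alternatives. Among these were the fits without DMSO replicate 2 (-0.12), GNF-7 replicate 1 (-0.16) or GNF-7 replicate 3 (-0.16). At 24 h it was -0.82 with no overlap.

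PLK1, the polo-like kinase that acts at centrosomes and kinetochores, was at 225, 238 and 240.1 CPM in cycling and 79.3, 92.1 and 79.4 CPM in senescent libraries with DMSO for 6 h. Its level with GNF-7 was 66.9, 70 and 73 CPM at 6 h and 43.2, 44.2 and 47 CPM at 24 h, against 60.5, 70.4 and 67 CPM with DMSO for 24 h. PLK1 was among the genes least lowered by GNF-7 at 24 h (-0.56, SE 0.055, edgeR adjusted p = 1.76e-12), together with cyclin B2 (CCNB2, -0.58). Cyclin F (CCNF), an F-box protein that directs proteins to destruction, fell by 1.57 in senescence and fell by 1.04 with GNF-7 at 24 h. The phosphatase CDC25C, which activates CDK1, was at 13.3 ± 2.28 CPM in cycling and 2.57 ± 0.178 CPM with GNF-7 for 24 h, and at 6 h its fold change of -0.26 was not called although the libraries did not overlap.

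The 5 spindle checkpoint genes all fell in senescence (median log2 fold change -1.56), and all 5 fell with GNF-7 at 24 h (median -1.07). BUB3, which brings BUB1 and BUBR1 to kinetochores, was above 10 CPM in every library. It was at 281, 298 and 286 CPM in cycling libraries and 159, 159 and 174 CPM in senescent libraries with DMSO for 6 h. With GNF-7 for 6 h it was at 166, 156 and 162 CPM, with DMSO for 24 h at 179, 178 and 187 CPM and with GNF-7 for 24 h at 157, 148 and 150.1 CPM. Its fold change was -0.81 in senescence (SE 0.039, edgeR adjusted p = 1.28e-27) and -0.26 with GNF-7 at 24 h (SE 0.040, edgeR adjusted p = 8.57e-08). At 6 h the libraries overlapped and the difference of -0.027 had a 95% interval of -0.11 to 0.052, with either sign among the alternatives. MAD2L1, the inhibitor that captures CDC20, fell from 116, 123 and 126 CPM to 24.6, 29.6 and 27.2 CPM in senescence (-2.17, SE 0.063). With GNF-7 at 24 h it was at 13.7, 12.6 and 12 CPM against 28.6, 25 and 26.5 CPM with DMSO. These libraries did not overlap (-1.07, SE 0.075, edgeR adjusted p = 1.51e-18). At 6 h its -0.21 was called, with overlapping libraries. It was not called in 3 of 15 alternatives, among them without DMSO replicate 2 (-0.14) or GNF-7 replicate 3 (-0.14).

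BUBR1 (BUB1B), the checkpoint kinase homologue that binds and inhibits the APC/C, went from 119.7, 126 and 125 CPM in cycling to 39.6, 45.7 and 40.2 CPM in senescent libraries with DMSO for 6 h. GNF-7 libraries were at 31, 32.4 and 32.4 CPM at 6 h and 15.7, 15.8 and 16.3 CPM at 24 h, below the DMSO libraries each time (36, 37.6 and 34.3 CPM at 24 h). The fold changes were -1.56, -0.39 and -1.18 in senescence, at 6 h and at 24 h, all called lower. BUB1, the kinase that marks centromeric histone H2A, and TTK (MPS1), which starts checkpoint signalling, fell with GNF-7 at 24 h, with log2 fold changes of -1.28 and -0.95.

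All 4 genes of the chromosomal passenger complex, which corrects wrong attachments and later acts at the midzone, were lower in senescence (median -1.61) and with GNF-7 at 24 h (median -1.24). Aurora B (AURKB), its kinase, was at 90.1, 97.1 and 98 CPM in cycling, 19.4, 18.9 and 18.7 CPM in senescent libraries with DMSO for 6 h and 19.6, 17.3 and 18.1 CPM with GNF-7 for 6 h. After 24 h it was at 18.1, 18.1 and 19.4 CPM with DMSO and 7.78, 7.37 and 6.51 CPM with GNF-7. The 6 h groups overlapped, and the 24 h groups did not. AURKB fell by 2.32 in senescence (SE 0.064, edgeR adjusted p = 2.82e-40) and fell by 1.36 with GNF-7 at 24 h (SE 0.081, edgeR adjusted p = 8.68e-23). At 6 h the difference was -0.052 with a 95% interval of -0.19 to 0.088. Survivin (BIRC5), which targets the complex to the centromere, was at 217, 216 and 217 CPM in cycling and 61.7, 65.7 and 66.2 CPM in senescent libraries with DMSO for 6 h. At 24 h it was at 53.8, 62.7 and 57.7 CPM with DMSO and 26.5, 24.2 and 25.6 CPM with GNF-7, without overlap (-1.19, SE 0.053).

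INCENP, the scaffold of the complex, had one of the widest falls of the list with GNF-7 at 6 h (-0.51, SE 0.057, edgeR adjusted p = 3.61e-11), from 41.1, 39.2 and 39.1 CPM with DMSO to 26.6, 30.6 and 26.9 CPM. The libraries did not overlap. Borealin (CDCA8) fell by 1.28 at 24 h, and its level was 12.6 ± 0.295 CPM with GNF-7 against 30.6 ± 2.1 CPM with DMSO (SD, n = 3).

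The 9 centromere and kinetochore genes had a median of -1.80 in senescence and -1.45 with GNF-7 at 24 h, and all 9 were called lower in both. At 6 h, 7 of the 9 were called lower, CENPA and NDC80 being the others. SPC24 (chr19:11131520-11155808), a subunit of the NDC80 complex that links centromere to microtubule, had the lowest fold change of the 57 genes with GNF-7 at both times. It was at 47.3, 52.5 and 48.8 CPM in cycling, 8.05, 9.6 and 8.85 CPM in senescent libraries with DMSO for 6 h and 5.93, 5.69 and 6.27 CPM with GNF-7 for 6 h. After 24 h SPC24 was at 8.96, 7.55 and 8.13 CPM with DMSO and 2.2, 2.57 and 1.93 CPM with GNF-7. No libraries overlapped in any of these 3 comparisons. The fold changes of SPC24 were -2.49 in senescence (SE 0.089), -0.57 at 6 h (SE 0.10) and -1.88 at 24 h (SE 0.13, edgeR adjusted p = 1.69e-20). SPC24 is also the gene whose promoter stretch is printed above without a CHR element. Its whole window held none in the forms searched, and neither did the windows of AURKB, BUB1, CCNA2, CDCA5, NEK2 and SGO1.

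The other 3 subunits of the NDC80 complex fell too. SPC25, the partner of SPC24, was at 27, 27.6 and 29.4 CPM in cycling and 1.34, 1.27 and 1.06 CPM with GNF-7 for 24 h, against 4.28, 3.77 and 4.45 CPM with DMSO (-1.76, SE 0.17). Parts of its annotated transcript are at least 95% identical over 200 bases or more to stretches of REV3L, CCDC88A and SPIN3, genes with up to 1892, 2342 and 1476 counts, so that its counts are uncertain. NDC80 itself was at 77.8, 77.6 and 70.4 CPM in cycling, 24.3, 27.3 and 26.6 CPM in senescent libraries with DMSO for 6 h and 22.4, 24.3 and 22.7 CPM with GNF-7 for 6 h. After 24 h NDC80 was at 23.7, 27.5 and 25.4 CPM with DMSO and 12.4, 9.09 and 11.4 CPM with GNF-7. The 6 h groups overlapped (-0.17, edgeR adjusted p = 0.0581), with a call in 3 of 15 alternatives, among them without DMSO replicate 1 (-0.22). The 24 h groups were apart (-1.22, SE 0.081). NUF2, which pairs with NDC80, fell by 1.45 at 24 h.

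CENPA, the histone variant that marks the centromere, was at 31.1, 32.8 and 30.2 CPM in cycling and 9.07, 9.63 and 8.98 CPM in senescent libraries with DMSO for 6 h. With GNF-7 it was at 7.97, 9.12 and 10.2 CPM at 6 h and 4.64, 4.0 and 4.48 CPM at 24 h, against 8.87, 8.18 and 8.98 CPM with DMSO for 24 h. Its 6 h difference of -0.024 (95% interval -0.23 to 0.18) lay within the spread of the libraries, and at 24 h it fell by 0.99 (SE 0.11, edgeR adjusted p = 2.29e-11). KNL1, the platform to which BUB1 and BUBR1 are recruited, and ZWINT, which binds it, fell with GNF-7 at 24 h, with log2 fold changes of -1.597 and -1.495. The kinetochore motor CENPE was at -1.19 in senescence and -1.44 with GNF-7 at 24 h, and CENPF, a large outer protein, at -1.62 and -1.01, all called lower.

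**Figure D4:**
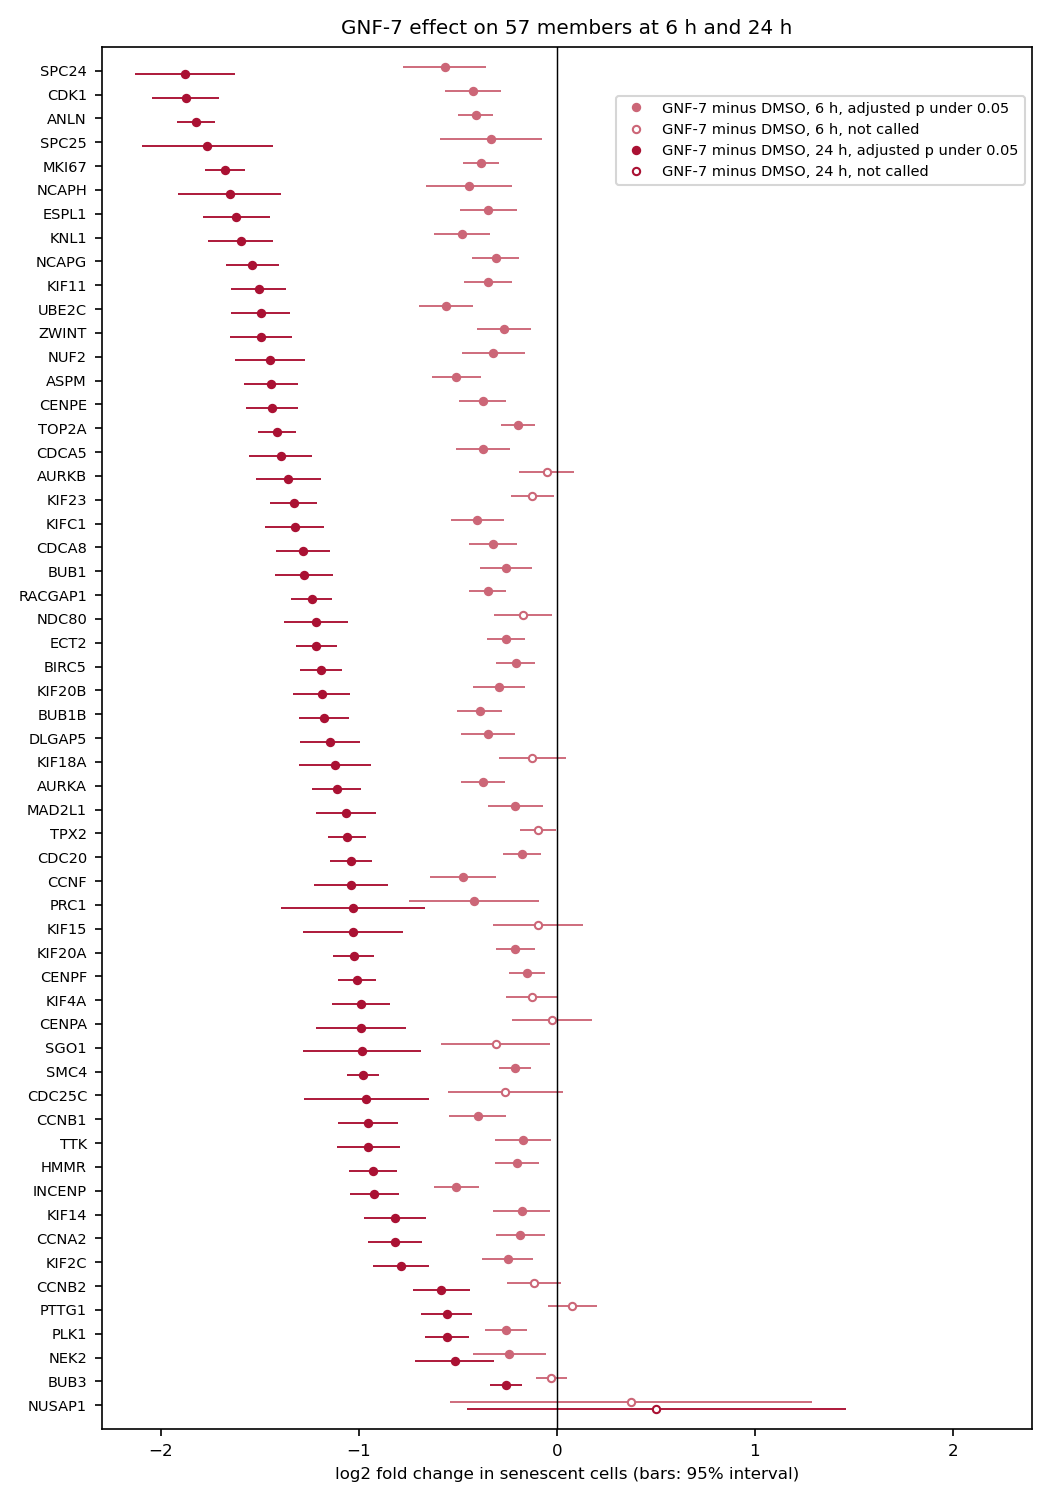
Log2 fold change of GNF-7 against DMSO in senescent cells for each of the 57 genes, at 6 h and at 24 h, with bars for the 95% confidence interval. The 24 h points lie below the 6 h points for all genes but NUSAP1, whose intervals span 0, and reach from -1.88 (SPC24) to -0.26 (BUB3) among the 56 called genes.

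Among the 6 genes of the APC/C and sister separation, all fell in senescence (median -1.86) and with GNF-7 at 24 h (median -1.22). UBE2C (chr20:45812576-45816957) had the widest senescence fall of the list. Cycling libraries were at 152, 159.5 and 155 CPM and senescent libraries with DMSO for 6 h at 20.4, 19.5 and 21.6 CPM, far apart (-2.92, SE 0.058, edgeR adjusted p = 1.46e-47). GNF-7 libraries were at 14, 12.8 and 14.9 CPM at 6 h and 7.78, 7.44 and 7.5 CPM at 24 h, against 22.1, 19.9 and 22.1 CPM with DMSO for 24 h. Neither pair overlapped, with -0.56 at 6 h and -1.496 at 24 h. CDC20, the activator through which the APC/C reaches its mitotic targets, was at 260.0, 258 and 269 CPM in cycling, 68.1, 83.5 and 75.8 CPM in senescent libraries with DMSO for 6 h and 63.5, 68.2 and 69.6 CPM with GNF-7 for 6 h. After 24 h CDC20 was at 71.1, 73.3 and 70.6 CPM with DMSO and 35.4, 34.3 and 34.8 CPM with GNF-7 (-1.04, SE 0.052). The 6 h groups overlapped, and the fold change of -0.18 (edgeR adjusted p = 0.00268) was not called without DMSO replicate 2 (-0.10).

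Securin (PTTG1), the inhibitor of separase, was not called at 6 h. It was at 113, 111 and 110.1 CPM in cycling, 32.7, 41.9 and 38.8 CPM in senescent libraries with DMSO for 6 h and 41.1, 41.5 and 37.3 CPM with GNF-7 for 6 h. The last 2 groups overlapped, with a difference of 0.079 (95% interval -0.044 to 0.20, edgeR adjusted p = 0.33), which was -0.018 without DMSO replicate 1. At 24 h PTTG1 was at 39, 40.9 and 38.5 CPM with DMSO and 25.3, 27.3 and 27.9 CPM with GNF-7 and fell by 0.56 (SE 0.064). Separase (ESPL1), its target, fell by 1.62, from 19.2 ± 1.44 to 6.23 ± 0.547 CPM (SD, n = 3). Sororin (CDCA5) and shugoshin (SGO1), which protect cohesion, fell with GNF-7 at 24 h, with log2 fold changes of -1.396 and -0.99.

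The 10 kinesins, motors that build the spindle and move chromosomes, had the smallest median fall of the 9 groups in senescence (-1.37), and all 10 were also lower with GNF-7 at 24 h (median -1.08). KIF11, which pushes spindle poles apart, was at 147, 162 and 165 CPM in cycling and 34, 35.6 and 36.2 CPM in senescent libraries with DMSO for 6 h. With GNF-7 it was at 26.6, 26.4 and 30.1 CPM at 6 h and 11, 10.4 and 10.1 CPM at 24 h, against 30.9, 30.9 and 27.8 CPM with DMSO for 24 h. Groups did not overlap in the 3 comparisons (-2.16, -0.35 and -1.51, SE 0.055, 0.060 and 0.070). KIF20A, a midzone motor, was at 125, 133 and 126 CPM in cycling and 58.2, 63.6 and 60.9 CPM in senescent libraries with DMSO for 6 h. It went from 57.2, 58.6 and 57.2 CPM with DMSO to 27.7, 29.1 and 28.2 CPM with GNF-7 at 24 h (-1.02, SE 0.052).

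KIF18A had the smallest senescence fall of the list, from 31, 35.4 and 32.8 CPM in cycling to 18.7, 22.3 and 16.9 CPM (-0.78, SE 0.081, edgeR adjusted p = 6.27e-13). With GNF-7 at 24 h it was at 9.35, 8.7 and 9.06 CPM against 20.9, 20.2 and 17.8 CPM with DMSO (-1.12, SE 0.092). Both pairs of groups were apart. KIF15, which can stand in for KIF11, and KIFC1, which clusters centrosomes, fell in senescence, with log2 fold changes of -2.29 and -2.100. The remaining kinesins, KIF20B, KIF23, KIF2C, KIF4A and KIF14, fell in senescence, with log2 fold changes from -1.46 (KIF23) to -1.28 (KIF2C). KIF4A has a copy, KIF4B, that is 95.3% identical along its transcript and had at most 8 counts in a library.

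All 7 spindle assembly genes were lower in senescence (median -1.42), and 6 of 7 were lower with GNF-7 at 24 h (median -1.06). TPX2, which activates Aurora A on the spindle, was at 386, 423 and 407 CPM in cycling, 117, 133 and 128 CPM in senescent libraries with DMSO for 6 h and 112, 124 and 119 CPM with GNF-7 for 6 h. After 24 h TPX2 was at 112, 118 and 126 CPM with DMSO and 59.5, 55.2 and 56.1 CPM with GNF-7. The 6 h libraries overlapped (-0.094, edgeR adjusted p = 0.0973), with a call in 2 of 15 alternatives, among them without DMSO replicate 1 (-0.15). The 24 h libraries did not overlap (-1.06, SE 0.048, edgeR adjusted p = 6.07e-26). Aurora A (AURKA), a kinase of the spindle poles, was at 117, 125 and 119 CPM in cycling and 59, 63.7 and 57.1 CPM in senescent libraries with DMSO for 6 h. It was at 45.6, 52.5 and 49.4 CPM with DMSO and 21.2, 23 and 23.9 CPM with GNF-7 for 24 h, and neither pair of groups overlapped. AURKA fell by 1.01 in senescence (SE 0.053, edgeR adjusted p = 4.12e-25) and fell by 1.11 with GNF-7 at 24 h (SE 0.061). At 24 h ASPM, a spindle pole protein, fell by 1.45. The centrosome kinase NEK2 was at 15.4, 18.1 and 13.7 CPM with DMSO and 11.6, 11.1 and 10.4 CPM with GNF-7 for 24 h and fell by 0.52 (SE 0.10). HMMR and DLGAP5, both microtubule-binding proteins, fell with GNF-7 at 24 h, with log2 fold changes of -0.93 and -1.15.

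NUSAP1, a microtubule bundling protein, was counted at 4 to 48 reads per library, the least of the list. It was at 1.81, 1.14 and 1.57 CPM in cycling and 0.331, 0.316 and 0.728 CPM in senescent libraries with DMSO for 6 h, and fell by 1.71 (SE 0.42, edgeR adjusted p = 3.15e-04). With GNF-7 for 24 h it was at 0.668, 0.585 and 0.365 CPM against 0.638, 0.317 and 0.155 CPM with DMSO, overlapping, with a log2 difference of 0.50 and a 95% interval of -0.45 to 1.46. In the GENCODE 29 annotation, 62.2% of its exon bases lie in the exons of AC087721.2 on the same strand, and that gene had 0 counts in all libraries. How reads in the shared exons were counted is not given in the sources used here, so that the level of NUSAP1 is uncertain, and no change with GNF-7 was detectable at these counts.

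The 4 midzone and cytokinesis genes fell in senescence (median -1.78) and with GNF-7 at 24 h (median -1.23). ANLN (chr7:36389806-36453791), which ties actin, septins and RhoA together at the furrow, was at 372, 423 and 408 CPM in cycling and 114, 122 and 117 CPM in senescent libraries with DMSO for 6 h. GNF-7 libraries were at 92.2, 86.9 and 86.2 CPM at 6 h and 33.3, 33.2 and 31.5 CPM at 24 h, against 115, 119 and 113 CPM with DMSO for 24 h. No groups overlapped in these comparisons. ANLN fell by 1.77 in senescence (SE 0.042). With GNF-7 its fold change was -0.41 at 6 h (SE 0.043) and -1.82 at 24 h (SE 0.048, edgeR adjusted p = 5.44e-41). ECT2, the exchange factor that activates RhoA, and RACGAP1, its partner at the midzone, fell at 24 h, with log2 fold changes of -1.22 and -1.24.

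PRC1, which cross-links the microtubules of the midzone, was at 20.2, 18.2 and 19.8 CPM in cycling and 4.44, 6.13 and 5.31 CPM in senescent libraries with DMSO for 6 h. It was at 4.82, 4.73 and 4.41 CPM with DMSO and 2.57, 2.7 and 1.56 CPM with GNF-7 for 24 h, without overlap (-1.03, SE 0.18, edgeR adjusted p = 2.69e-06). In the annotation 64.9% of its exon bases lie in AC068831.7, a gene on the same strand with 5 to 245 counts per library, and how reads of both were counted is not given in the sources used here. At 6 h its libraries overlapped, at 2.62, 4.8 and 4.49 CPM with GNF-7. The fold change of -0.42 (edgeR adjusted p = 0.0365) was not called in 5 of 15 alternatives. Among these were the fits without DMSO replicate 2 (-0.30), DMSO replicate 3 (-0.42) or GNF-7 replicate 1 (-0.19).

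The 5 chromosome structure genes had the widest median falls of the 9 groups, -2.06 in senescence and -1.54 with GNF-7 at 24 h. MKI67 (chr10:128096659-128126385), whose protein Ki-67 coats mitotic chromosomes and is the standard proliferation marker, was at 484, 532 and 509.5 CPM in cycling and 146, 153 and 148 CPM in senescent libraries with DMSO for 6 h. With GNF-7 it was at 113, 116 and 114 CPM at 6 h and 42.8, 40.1 and 34.3 CPM at 24 h, against 123, 130.4 and 122 CPM with DMSO for 24 h. The groups were apart each time. The fold changes were -1.77 in senescence (SE 0.044), -0.38 at 6 h (SE 0.045) and -1.68 at 24 h (SE 0.050, edgeR adjusted p = 7.67e-33). TOP2A, the topoisomerase that untangles sister DNA, was at 521, 574 and 565 CPM in cycling and 109.8, 103 and 113 CPM in senescent libraries with DMSO for 6 h (-2.35, SE 0.043). At 24 h it was at 96.2, 88.3 and 93.9 CPM with DMSO and 36.7, 32.6 and 35.1 CPM with GNF-7 (-1.42, SE 0.048).

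SMC4, the ATPase shared by both condensins, had the highest CPM of the list in cycling cells, at 658, 684 and 694, and was at 193, 207 and 210.4 CPM in senescent libraries with DMSO for 6 h (-1.74, SE 0.039). With GNF-7 at 24 h it was at 104, 97 and 94.5 CPM against 193, 203 and 187 CPM with DMSO (-0.98, SE 0.041). The condensin I subunits NCAPG and NCAPH fell too, with log2 fold changes of -2.06 and -2.42 in senescence and of -1.54 and -1.65 with GNF-7 at 24 h. Per kilobase of annotated exon, which allows levels of different genes to be compared, CDC20 was the highest of the list in cycling cells at 129 CPM per kb, followed by UBE2C at 121 and TPX2 at 113, and NUSAP1, whose counts are uncertain because of the overlap, was the lowest.

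**Figure D5:**
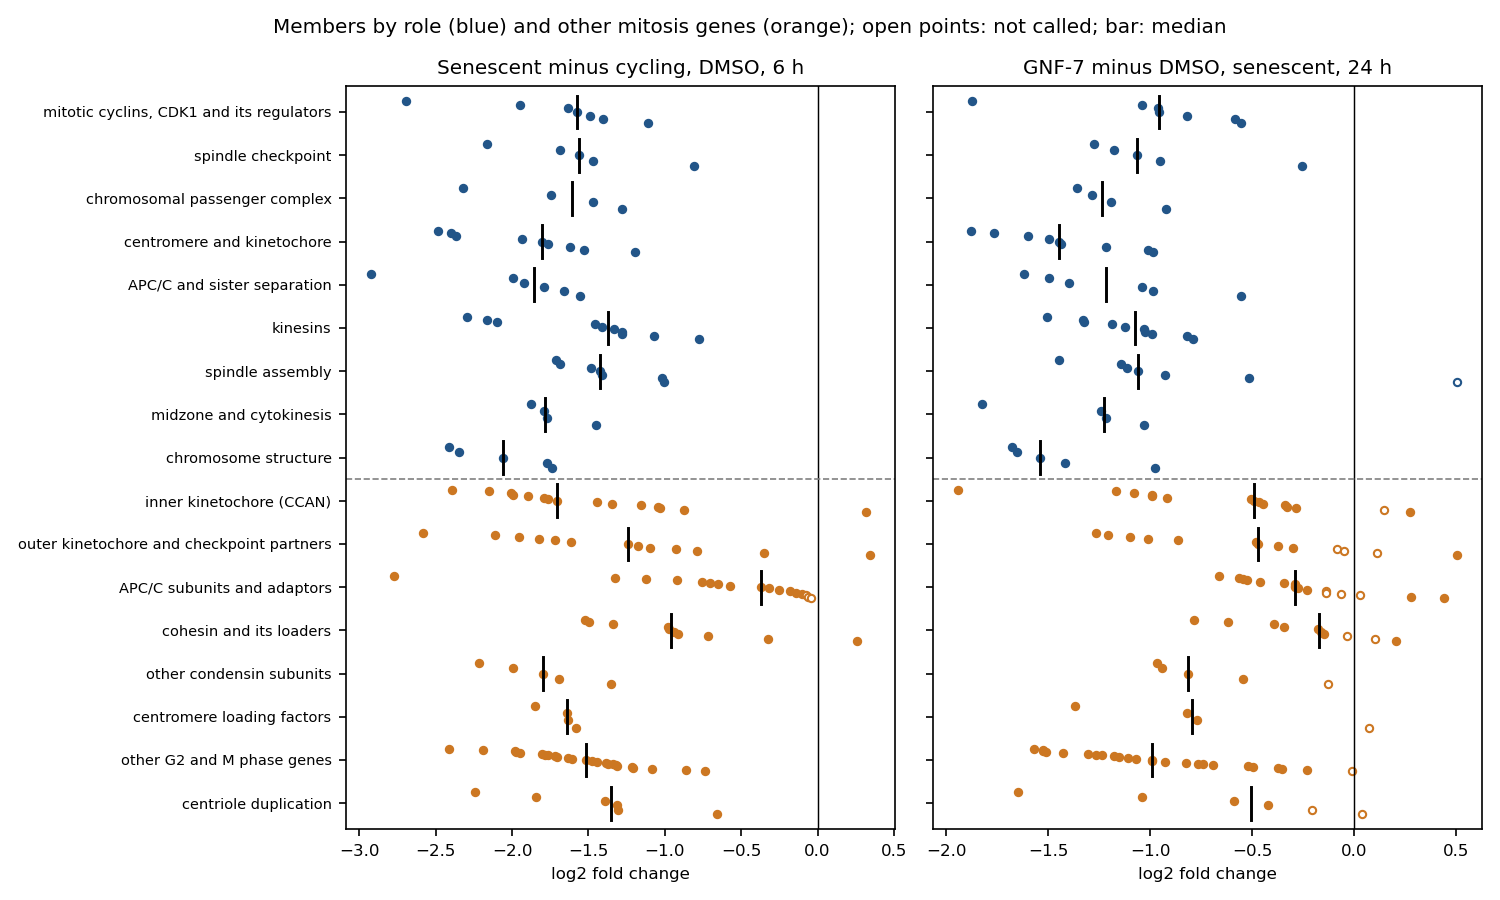
Log2 fold change of each listed gene by role (blue) and of 95 other mitosis genes (orange), with a bar for the median of each row and open points for genes that were not called. Chromosome structure genes have the lowest medians (-2.06 in senescence and -1.54 with GNF-7 at 24 h). The other mitosis genes spread to values above 0, as does NUSAP1 of the listed genes with GNF-7 at 24 h.

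Whether the GNF-7 effect differed between 6 h and 24 h was tested as an interaction, the 24 h log2 fold change minus the 6 h one. For 54 of the 57 genes the difference was below 0, and for none above, with 30.8% of genes tested called in either direction and 18.0% called below 0. The median difference was -0.92, against -5.15e-05 over all genes, and 19 genes had a difference of at least 2-fold, as 2.06% of genes tested did below 0 and 2.93% above. It was widest for CDK1 (-1.45, SE 0.11, edgeR adjusted p = 8.80e-17), SPC25 (-1.43) and ANLN (-1.41), and small for BUB3 (-0.23, SE 0.056) and PLK1 (-0.30, SE 0.075). AURKB, CENPA, KIF23 and TPX2, which were not called at 6 h, had differences of -1.304, -0.96, -1.21 and -0.96. The 3 genes with no call were NEK2 (-0.28, edgeR adjusted p = 0.118), PRC1 (-0.61, edgeR adjusted p = 0.0504) and NUSAP1 (0.13, edgeR adjusted p = 0.919). PRC1 was called in 9 of 21 alternatives. Among these were the fits without DMSO 6 h replicate 2 (-0.74) or replicate 1 of GNF-7 at 6 h (-0.84). The fits without replicate 1 (-0.71) or 2 (-0.75) of GNF-7 at 24 h were others. NEK2 was called without replicate 3 of GNF-7 at 6 h (-0.38) or DMSO 24 h replicate 3 (-0.36). This interaction shares its libraries with the 6 h and 24 h comparisons.

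The 14 genes with no call for GNF-7 at 6 h were AURKB, BUB3, CCNB2, CDC25C, CENPA, KIF15, KIF18A, KIF23, KIF4A, NDC80, NUSAP1, PTTG1, SGO1 and TPX2. Their fold changes ran from -0.31 to 0.38, and 13 of them were called lower at 24 h, NUSAP1 being the exception. The number called at 6 h ranged from 34 to 48 when 1 library was left out. Over all genes tested it ranged from 6339 to 6804, against 7286 with every library.

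Between 6 h and 24 h of DMSO alone, senescent cells changed little in these genes. At 24 h 22 of the 57 were lower and 1 was higher, with 18.5% of genes tested called, 9.29% lower and 9.26% higher, and the median log2 fold change was -0.12 against 0.0088 over all genes. None changed 2-fold, against 0.232% of genes tested lower and 0.302% higher by that much. CCNF had the lowest fold change. It was at 19.7, 23.8 and 22.9 CPM at 6 h and 15.8, 18.7 and 14.3 CPM at 24 h without overlap (-0.45, SE 0.083, edgeR adjusted p = 4.25e-05). NEK2 had -0.36 and PLK1 -0.34 (SE 0.052). The gene that rose was BUB3, by 0.14 (SE 0.040, edgeR adjusted p = 0.00571), a rise not called with scaling by total counts (0.033) or without DMSO 6 h replicate 2 (0.12) or DMSO 24 h replicate 3 (0.12). The number called in this comparison rests on single libraries and on the scaling: it was 13 without DMSO 6 h replicate 2, 15 without DMSO 24 h replicate 1, and 15 without DMSO 24 h replicate 3. All genes called ran from 2535 to 2994 with 1 library left out, against 3443 with every library. Scaling by total counts gave 40 lower and 0 higher. That scaling also moved the median of all genes to -0.10 and the share of called genes that were higher from 49.9% to 12.5%. NEK2 was not called without DMSO 24 h replicate 3 (-0.27).

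Senescence and GNF-7 at 24 h were compared on separate libraries, and their fold changes can be set side by side. In 52 of the 57 genes the senescence value was the lower one, and in ANLN, AURKA, CDCA8, CENPE and KIF18A the GNF-7 value at 24 h was. For KIF18A the values were -0.78 and -1.12, for CENPE -1.19 and -1.44, and for UBE2C, at the other end, -2.92 and -1.496. The difference between the 2 values was not tested. Across the 57 genes the senescence and 24 h fold changes had a Pearson r of 0.51 and a Spearman rho of 0.57 (0.61 and 0.59 over the 56 genes without NUSAP1). Genes are not independent replicates, and levels and depth are shared within a library, so this is a description.

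The 49 genes with a promoter window were also split by the CHR element, as TTTGAA or TTTAAA, within 50 bases of the start. Genes with only another form of the element would be counted as without it. So were CCNF, CDC20, CENPE, KIF23, SMC4 and TOP2A, which held a match farther from the start. Anywhere in the window, 42 of the 49 genes had a match. In senescence the median log2 fold change was -1.63 for the 36 genes with the element within 50 bases and -1.74 for the 13 without it there. With GNF-7 at 24 h the medians were -1.13 and -1.28. At 24 h the genes without the element within 50 bases ranged from -1.88 (SPC24) to -0.52 (NEK2). Those with it ranged from -1.88 (CDK1) to 0.50 (NUSAP1). AURKB was counted as lacking the element, but its windows reached only to position 8210499. The annotated gene begins at 8210600 on the minus strand, so the promoter there was not searched. Outside the mitosis lists, 386 genes tested had both elements, and 45.6% of these were called lower in senescence, against 44.1% of 5796 genes with neither and 45.1% of all 10863 protein-coding genes tested with a window. With GNF-7 at 24 h these shares were 42.5%, 36.9% and 39.6%. These shares are descriptions with no test.

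A set of 95 further mitosis genes, in 8 lists by function, was tested in the same fits. In senescence 89 of them were lower and 3 higher, with a median of -1.35, where 34.4% of genes tested were lower and 35.6% higher. With GNF-7, 45 were lower and 6 higher at 6 h (median -0.19), against 21.4% and 17.9% of genes tested, and 75 were lower and 5 higher at 24 h (median -0.50), against 29.7% and 29.3%. Of 25 other G2 and M phase genes, all were lower in senescence and 24 at 24 h, where GTSE1 fell by 1.57 and CDC25B, a phosphatase that activates CDK1, was at -0.010. Of the 15 genes of the constitutive centromere network that sits on CENP-A, 14 were lower in senescence and 13 at 24 h, with CENPI at -1.94. CENPT was higher in senescence (0.32) and CENPP at 24 h (0.27).

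Medians were nearer to 0 for subunits of the APC/C and for cohesin. Of 17 APC/C subunits and adaptors, 14 were lower in senescence with a median of -0.37, led by the APC/C inhibitor FBXO5 (-2.77), and 11 were lower and 2 higher with GNF-7 at 24 h (ANAPC16 0.44, ANAPC4 0.28). Cohesin holds sisters together, and its list also has loaders and regulators. Of these 10 genes, 9 were lower in senescence (median -0.96, SMC1A -1.52) and 7 at 24 h (median -0.17), where PDS5A was higher (0.20). Of 13 outer kinetochore and checkpoint partners, 12 were lower in senescence, and MAD1L1, the partner of MAD2, was higher there (0.35) and with GNF-7 at 24 h (0.50). All 5 further condensin subunits, 4 centromere loading factors and 6 centriole duplication genes were lower in senescence. Of the last, PLK4, the kinase that starts centriole duplication, was at -2.24 in senescence and -1.65 with GNF-7 at 24 h.

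In the annotation 20 of the 57 genes overlap an exon of a gene on the opposite strand and 4 overlap one on the same strand. The library kit keeps the strand, per the labels, and whether the counting used it is not given in the sources used here, so that counts of these genes may include reads of their partners or lack reads assigned to them. Near-identical copies of AURKA, CDC20 and MAD2L1 had at most 9 counts in a library.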

How the data were processed

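RNA of 15 HT-1080 libraries was sequenced, and the deposited values are raw read counts per gene. Per the submitters' processing notes, the authors used bcl2fastq 2.20.0.422, STAR 2.7.9a and featureCounts 1.5.1 with GRCh38. Roles of these tools, the annotation release and the strand setting of the counting are not given in the sources used here. Of 60673 rows, 3 left by 1 broken entry were dropped. Symbols and positions came from GENCODE 29.

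The counts were tested with edgeR 4.0.16 in R 4.3.3: genes were kept with filterByExpr (18563), scaled with TMM, and fitted over all 5 groups with robust quasi-likelihood. P-values were adjusted over all 18563 genes by Benjamini-Hochberg, and a call is an adjusted p under 0.05. Log2 fold changes are given with SE or a 95% interval. Both were derived from the fold change and the quasi-likelihood test statistic, so they are approximate. The biological coefficient of variation was 4.64%, and no pair of libraries was a duplicate. Alternatives were RLE factors, total counts, scaling without mitochondrial genes, no filter, a mean of 5 CPM, DESeq2 1.42.0, limma voom 3.58.1, a replicate block, fits on the compared groups alone, and leaving out each library. The genes chosen for library levels were the 3 lowest and 3 highest of each comparison and 21 named by role, some with fewer groups or errors printed than others. Members and lists were chosen with earlier results of these data known. Copies were sought with BLAST (95% identity over 200 bases). Counting error at 4 reads, the lowest value, applies to NUSAP1. PRC1 and SPC25, with lowest counts of 47 and 32, also had calls that moved under alternatives. Calls moved for genes with more reads too, among them CCNA2 and MAD2L1 with GNF-7 at 6 h (lowest counts 597 and 361).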

Additional observations from a re-analysis of the deposited data

Results flagged for a closer look

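By the interaction test in edgeR, 54 of the 57 genes responded to GNF-7 by a different amount after 24 h than after 6 h, all with a difference below 0, where 30.8% of genes tested were called in either direction and 18.0% below 0. The log2 fold change at 24 h minus that at 6 h was -1.45 for CDK1, -1.43 for SPC25, -1.41 for ANLN, -1.30 for AURKB, -1.29 for MKI67 and -1.22 for TOP2A. It was -1.16 for KIF11, -1.05 for NDC80, -0.98 for BIRC5, -0.96 for CENPA, -0.96 for TPX2, -0.94 for UBE2C, -0.86 for CDC20 and -0.86 for MAD2L1. Smaller differences were measured for KIF20A (-0.82), BUB1B (-0.79), SMC4 (-0.77), PTTG1 (-0.64), CCNA2 (-0.63), CCNB1 (-0.56), PLK1 (-0.30) and BUB3 (-0.23).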

How the results depend on the processing

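Of 2301 values computed under alternatives for 142 results, 2211 were classed as the same as in the main fit. For single genes this meant the same direction and the same side of the threshold. Counts of called genes had to stay within a set fold range of the main count, so they could still move. Medians had to keep their sign and stay within the spread of the library medians. The listed genes had a median in senescence of -1.55 with total counts and -1.52 when genes under a mean of 5 CPM were dropped, and -1.73 to -1.59 with 1 library left out. With total counts the median of all genes in senescence was 0.19, against 0.062. The 24 h GNF-7 median was -1.06 with the 5 CPM filter, under which NUSAP1 was not tested. For DMSO at 24 h against 6 h, total counts gave 40 listed genes called, 47 other mitosis genes called and a median of -0.23. With 1 library left out those numbers ran from 13 to 29 and from 9 to 16. All genes called were 3443 in the main fit, 2535 to 2994 with 1 library left out and at most 5019 over the alternatives. The cause of these shifts was not tested.

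The values that changed sign had no call. For GNF-7 at 6 h these were AURKB (0.00017), BUB3 (0.025) and CENPA (0.029) with the 5 CPM filter, and with 1 library left out PTTG1 (-0.018 to 0.16), CENPA (-0.11 to 0.060, once 0.0063) and BUB3 (-0.052 to 0.014, once 0.0097). The difference between times turned for NUSAP1 (-0.36 to 0.78, also -0.17, -0.22 and -0.055). For DMSO over time, UBE2C (-0.049) and PTTG1 (-0.049) turned with total counts, and CDK1 (-0.14 to 0.028, also 0.011), PTTG1 (-0.031 to 0.14), MAD2L1 (-0.086 to 0.048, also 0.026) and NDC80 (-0.088 to 0.024, also 0.0057) with 1 library left out.

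Replicate numbers did not pair the samples: deviations of same-numbered libraries correlated at -0.055 to 0.088. With the replicate number as a block, 57, 45, 56, 55 and 24 listed genes were called in senescence, GNF-7 at 6 h, GNF-7 at 24 h, their difference and DMSO over time, with medians of -1.69, -0.26, -1.14, -0.92 and -0.12. Across alternatives, all genes called ran from 9211 to 13032 in senescence, 6042 to 7481 at 6 h and 8142 to 11062 at 24 h. The corresponding ranges were 5120 to 5921 for the difference and 2535 to 5019 for DMSO over time. NDC80 at 6 h (-0.17), PRC1 in the difference (-0.62) and SPC25 over time (-0.35) were called with the block alone or with others of the alternatives. Depth limits NUSAP1, at 4 to 48 counts.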
